A study of Rattus norvegicus with 6 samples.

Results

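Glomerular expression of 10 Notch pathway genes was compared between PEC-enriched and PEC-deprived isolates of rat kidney. The genes were the ligands Dll4, Dll1, Jag1 and Jag2, the receptors Notch1, Notch2, Notch3 and Notch4, and the target genes Hey1 and Hes1. They were chosen by name, with earlier results of these data known, and make up 10 of the 14506 genes measured. Each gene had exactly 1 probeset that was annotated with its symbol alone, and the value of that probeset is given throughout. Parietal epithelial cells (PECs) line Bowman's capsule, so glomeruli that keep the capsule carry them and glomeruli that have lost it do not. The 3 PEC-enriched samples came from the 90 µm sieve, where capsulated glomeruli were the larger share. The 3 PEC-deprived samples came from the 75 µm sieve and were mostly decapsulated glomeruli. By the study's counts the 90 µm fractions still held decapsulated glomeruli. Some 75 µm fractions held a few capsulated glomeruli, and most fractions of either kind held some tubule fragments. All samples came from adult male Sprague-Dawley rats that were untreated, with no culture step. Each isolation used an individual rat, and the methods give 3 animals for the isolations against 6 arrays. Whether both fractions came from the same rats is not given in the sources used here, so p-values measure the spread between these samples. Values are log2 expression values from RMA, which adjusts background, normalizes arrays to one distribution and summarizes the probes of a probeset, so a difference of 1 is a 2-fold change.

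Notch signaling works between touching cells. A Delta-like or Jagged ligand on one cell binds a Notch receptor on its neighbour, the receptor is cut by ADAM proteases and then by gamma-secretase, and the freed intracellular part enters the nucleus. There it joins RBPJ and Mastermind-like coactivators and switches on Hes and Hey genes, which encode repressors. In blood vessels Dll4, Notch1 and Notch4 are known from the endothelium, and Notch3 and Heyl are known from mural cells, the smooth muscle cells and pericytes of the vessel wall. In the kidney the pathway is known for its part in nephron segmentation, and in the adult glomerulus for low activity in podocytes, which rises in disease.

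Neither sample type is a pure cell population, and the marker lists set the frame for every value that follows. Of 12 markers known from the parietal epithelium, 10 had a higher mean in the PEC-enriched samples, and the list's mean level, relative to its mean over all arrays, was between 0.16 and 0.60 in the PEC-enriched samples and between -0.49 and -0.18 in the PEC-deprived samples. The largest differences of this list were those of Lad1, a basement membrane anchor protein, at 1.63 ± 0.30 (log2, SE), and of Pax8, a transcription factor of the nephron lineage, at 1.47 ± 0.29. Tubule markers moved the same way: all 12 of the proximal tubule list, 7 of 8 of the thick ascending limb and distal tubule list and 9 of 10 of the collecting duct list had higher means, with median log2 fold changes of 1.04, 2.10 and 0.46. The endothelial list went the other way, with all 15 measured markers lower and a median of -0.44. Of the 5 measured mesangial and renin cell markers 3 were lower (median -0.39), and all 9 leukocyte markers were lower (median -0.37). Single arrays weighed on these medians: without PEC-enriched replicates 1, 2 and 3 in turn the mesangial median was -0.74, -0.13 and -0.20, the leukocyte median was -0.59 without PEC-enriched replicate 1 and -0.23 without replicate 2, and the proximal tubule median was 0.68 without PEC-deprived replicate 2. The podocyte list (5 of 10 higher, median 0.02) and the list for vascular smooth muscle and pericytes (5 of 10 higher, median 0.01) were split. In bulk samples such as these, fewer cells of a type and less RNA per cell cannot be told apart.

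Of the 10 Notch genes, 8 had a lower mean in the PEC-enriched samples and 2, Jag1 and Notch2, a higher mean. The median log2 fold change, PEC-enriched minus PEC-deprived, was -0.36, against -0.02 over all genes. None passed the threshold of an adjusted p under 0.01 in limma, and neither did any of the 14506 genes (0%); the smallest adjusted p over all probesets was 0.15. At an unadjusted p under 0.05, 5 members were lower (Dll4, Dll1, Notch1, Notch4 and Hey1) and 1 was higher (Jag1), a total of 6 of 10 against 13.6% of all genes, of which 5.65% were lower and 7.96% higher. The 3 samples of one group lay entirely on one side of the other group's for 5 of the 10 members, 4 lower (Dll4, Dll1, Notch1 and Hey1) and 1 higher (Jag1), against 18.7% of all genes, of which 9% were lower and 9.68% higher. Because the members were chosen with earlier results of these data known, neither count is independent of the choice. Both are descriptions and not evidence about the pathway. A regularised Bayesian test of the kind the study's methods name, in which the variance of a probeset is drawn towards that of probesets of like level, called 1 member, Dll4, and 1.65% of all genes, most of them (1.41%) higher in the PEC-enriched samples. In 5 simulated sets false calls made up 24.4% of the calls of that test and 1.04% of those of limma. For simulated log2 changes of size 1, limma recovered 58.2% and the regularised Bayesian test 96.4%. The simulation took each probeset's SD on these few arrays as its true SD, which can count against tests that draw variances together. Both tests do so, the regularised Bayesian test with a fixed prior weight and limma with one estimated from the data. It therefore does not rank the tests, and p-values of the regularised Bayesian test are given beside those of limma and not in their place.

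**Figure D1:**
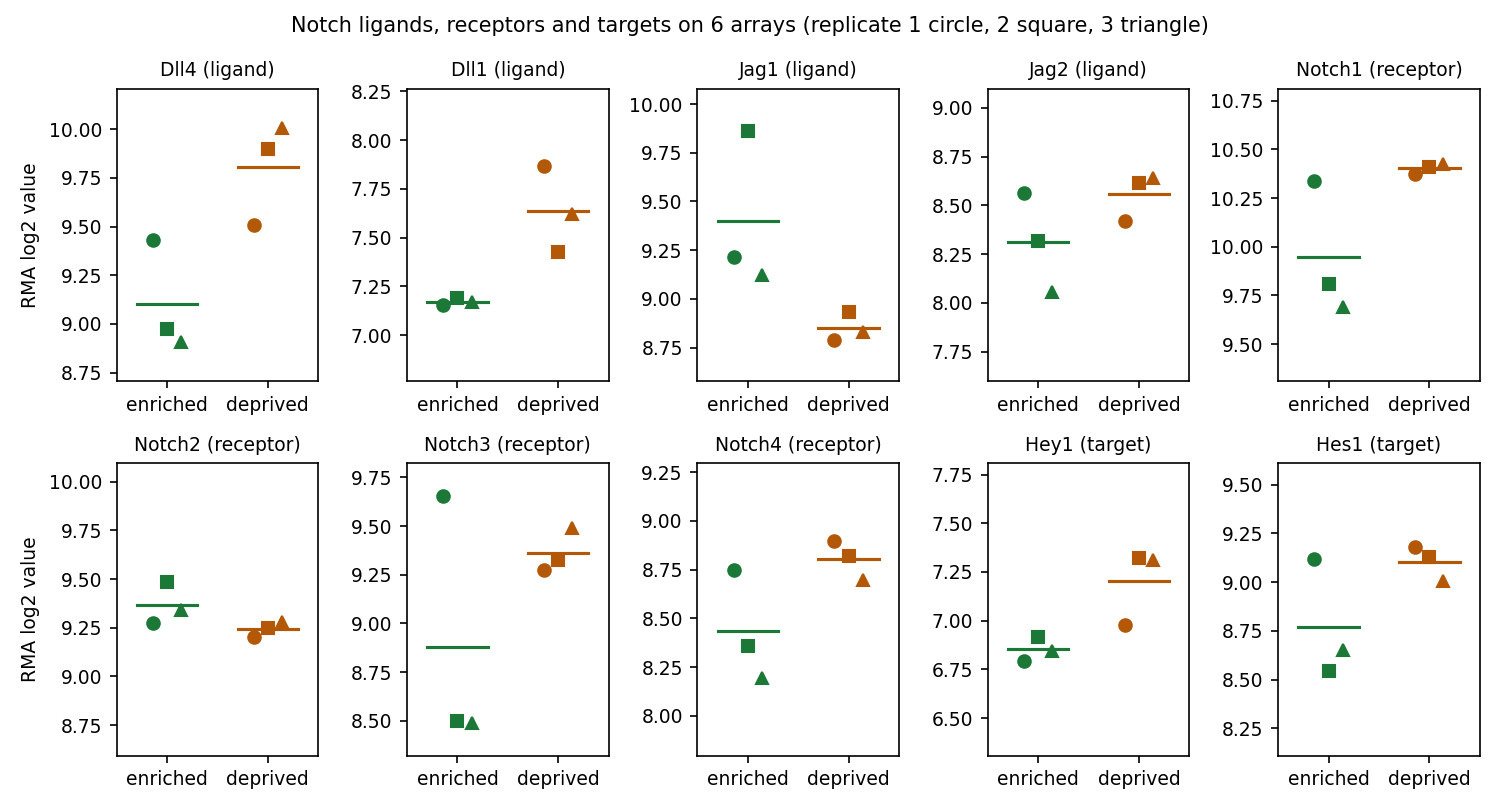
RMA log2 values of the 10 Notch genes on each of the 6 arrays, with PEC-enriched samples in green, PEC-deprived samples in orange and a bar at each group's mean (n = 3). Every panel spans the same log2 range around its own gene, so spreads can be compared and levels between genes cannot; PEC-enriched replicate 1 (green circle) lies nearest to the PEC-deprived samples for Dll4, Jag2, Notch1, Notch2, Notch3, Notch4 and Hes1.

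The promoter letters of 4 genes are shown here as examples of promoters with the letters of the RBPJ motif (Hes1 and Dll1) and without them (Jag1 and Heyl). RBPJ is the DNA-binding protein through which Notch acts, and its core is TGGGAA, which holds the GGAA of ETS factors and so overlaps their motif. The 250 bases before each transcription start are given 5′ to 3′ on the gene's strand, from RefSeq on the assembly GRCr8, with TGGGAA, or its reverse complement TTCCCA, in capitals.
Hes1 (chr11:84213046-84213295, minus strand): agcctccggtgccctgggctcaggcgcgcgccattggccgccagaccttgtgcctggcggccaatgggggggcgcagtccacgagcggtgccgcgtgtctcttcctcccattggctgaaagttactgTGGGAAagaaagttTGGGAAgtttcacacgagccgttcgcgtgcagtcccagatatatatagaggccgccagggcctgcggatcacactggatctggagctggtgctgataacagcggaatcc
Dll1 (chr1:64993275-64993524, minus strand): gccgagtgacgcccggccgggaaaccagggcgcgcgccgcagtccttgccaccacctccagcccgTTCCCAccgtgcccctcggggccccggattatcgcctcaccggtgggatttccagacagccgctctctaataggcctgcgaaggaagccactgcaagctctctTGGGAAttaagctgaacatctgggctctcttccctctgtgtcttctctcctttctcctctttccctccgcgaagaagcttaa
Jag1 (chr3:144894884-144895133, minus strand): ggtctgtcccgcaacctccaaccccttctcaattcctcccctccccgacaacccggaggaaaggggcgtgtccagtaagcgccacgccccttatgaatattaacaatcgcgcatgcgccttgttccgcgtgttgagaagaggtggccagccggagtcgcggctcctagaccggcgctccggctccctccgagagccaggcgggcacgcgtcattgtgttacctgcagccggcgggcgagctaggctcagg
Heyl (chr5:140793021-140793270, plus strand): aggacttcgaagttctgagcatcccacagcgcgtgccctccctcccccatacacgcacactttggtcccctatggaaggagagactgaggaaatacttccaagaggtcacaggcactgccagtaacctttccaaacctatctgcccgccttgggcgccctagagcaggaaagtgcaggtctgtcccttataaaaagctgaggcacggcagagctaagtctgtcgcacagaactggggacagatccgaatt

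In Hes1 both matches lie on the gene's strand, at -123 to -118 and -109 to -104 from the start. In Dll1 one match lies on the opposite strand at -185 to -180 and the other on the gene's strand at -82 to -77. Over windows of 300 bases, which also take in the first 50 transcribed bases, TGGGAA was found on either strand in 4 of the 8 members with an entry (Dll1, Notch3, Notch4 and Hes1) and in 25.7% of 33469 rat promoters. The longer GTGGGAA was found in Dll1 and Hes1, and in 6.29% of all promoters. CACGTG, an E-box of the kind Hey and Hes proteins bind, was found in none of the 8 members and in 6.42% of all promoters. Of the 7 other targets with an entry, Hey2, Hes5 and Hes7 held TGGGAA, and Nrarp held CACGTG. The 4 members with TGGGAA had lower means in the PEC-enriched samples, as did Jag2 and Notch1, which held none. Jag1 and Notch2, with higher means, held none either. Of the other targets with TGGGAA, Hes5 (-0.09 ± 0.16) and Hes7 (-0.15 ± 0.14) had lower means and Hey2 (0.08 ± 0.29) a higher one (log2 fold change, SE). Without TGGGAA, Nrarp had a lower mean, and Heyl, Hes2 and Hes6 had higher ones. Whether the letters go with the direction of the genes was not tested. The 4 promoters were picked after letters and directions were seen, and these are matches of letters only. Promoters of Dll4, Hey1 and Hes3 were not analysed here.

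The ligands divided into Dll4, Dll1 and Jag2 with lower means and Jag1 with a higher one. Dll4, the Delta-like ligand of angiogenic and arterial endothelium, had the largest difference of all members. Its values were 9.43, 8.98 and 8.91 in PEC-enriched replicates 1, 2 and 3, and 9.51, 9.90 and 10.004 in PEC-deprived replicates 1, 2 and 3. The groups did not overlap, but replicate 1 of each group lay close together, 0.08 apart. The log2 fold change was -0.70 ± 0.18 (SE, 95% interval -1.11 to -0.29), so the mean was 1.62-fold higher in the PEC-deprived samples. The adjusted p was 0.23 in limma and 0.0069 in the regularised Bayesian test. Dll4 is also in the gene list of the study, which was chosen on these same arrays, so its presence there is not independent evidence of its direction.

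Dll1, the Delta-like ligand known from somite and lymphoid development, was nearly constant in the PEC-enriched samples. It measured 7.16, 7.19 and 7.17 there, and 7.87, 7.42 and 7.62 in the PEC-deprived samples. There was no overlap, and nearly all of the spread lay in the PEC-deprived samples (SD 0.22, against 0.02). On the log2 scale the difference was -0.47 ± 0.12 (95% interval -0.75 to -0.19), with an adjusted p of 0.24 in limma.

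Jag1, the Jagged ligand mutated in Alagille syndrome and expressed in the developing nephron and in vascular smooth muscle, was the only ligand with a higher mean in the PEC-enriched samples. It measured 9.22, 9.86 and 9.13 in the PEC-enriched samples and 8.79, 8.93 and 8.83 in the PEC-deprived samples. Without overlap between groups, PEC-enriched replicate 2 stood above the other 5 arrays. This gave a log2 fold change of 0.55 ± 0.18 (95% interval 0.12 to 0.97), a 1.46-fold higher mean, with an adjusted p of 0.35 in limma. Without that replicate the log2 fold change was 0.32.

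Jag2, the other Jagged ligand, measured 8.56, 8.31 and 8.06 in the PEC-enriched samples and 8.42, 8.61 and 8.64 in the PEC-deprived samples. PEC-enriched replicate 1 lay above PEC-deprived replicate 1, so the groups overlapped. The log2 fold change of -0.25 ± 0.14 (95% interval -0.57 to 0.07, adjusted p = 0.64 in limma) ran from -0.37 without PEC-enriched replicate 1 to -0.12 without PEC-enriched replicate 3.

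The opposite directions of Jag1 and Dll4 were compared within arrays, which cancels anything that scales a whole array. Jag1 minus Dll4 was -0.22, 0.89 and 0.22 in the PEC-enriched samples and -0.72, -0.97 and -1.17 in the PEC-deprived samples. All 3 PEC-enriched values lay above all 3 PEC-deprived values. The difference between the group means was 1.25 (two-sided exact permutation test, p = 0.1, the smallest that 3 arrays against 3 can give, and 0.2 after Benjamini-Hochberg adjustment over 2 such comparisons). The pair was chosen with the direction of both genes known. Since each gene alone separated the groups, in opposite directions, this difference had to separate them too, so its p was fixed by the choice and adds nothing to the values of the genes.

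Among the receptors, Notch1 stood apart from Notch2. Notch1, the receptor known from endothelium and from many epithelia, was tight in the PEC-deprived samples, at 10.37, 10.41 and 10.43. It was 10.34, 9.81 and 9.69 in the PEC-enriched samples. No values overlapped, though PEC-enriched replicate 1 came within 0.03 of the lowest PEC-deprived value. The log2 fold change was -0.46 ± 0.16 (95% interval -0.83 to -0.08, adjusted p = 0.37 in limma), and it was -0.65 without PEC-enriched replicate 1.

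Notch2, the receptor whose loss stops proximal nephron and podocyte formation in the developing kidney, was the receptor with a higher mean in the PEC-enriched samples. It measured 9.27, 9.48 and 9.34 there and 9.20, 9.25 and 9.28 in the PEC-deprived samples. The groups overlapped by less than 0.01, since PEC-enriched replicate 1 lay just under PEC-deprived replicate 3. Its log2 fold change was 0.12 ± 0.09 (95% interval -0.09 to 0.34, adjusted p = 0.76 in limma), the smallest of the 10 members in size, and the interval leaves out a 2-fold difference in either direction. Without PEC-enriched replicate 2 the log2 fold change was 0.06.

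Notch3, the mural cell receptor, had the widest spread of the 10 genes within a group. It measured 9.66, 8.50 and 8.49 in the PEC-enriched samples, and 9.27, 9.33 and 9.49 in the PEC-deprived samples. PEC-enriched replicate 1 was the highest of all 6 arrays and the other PEC-enriched samples were the lowest, so the groups overlapped. The estimated log2 fold change was -0.48 ± 0.29 (95% interval -1.15 to 0.18, adjusted p = 0.67 in limma). It was -0.87 without PEC-enriched replicate 1 and -0.29 without either of the other PEC-enriched samples.

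Notch4, a receptor largely restricted to endothelium, measured 8.75, 8.36 and 8.20 in the PEC-enriched samples and 8.90, 8.82 and 8.70 in the PEC-deprived samples. PEC-enriched replicate 1 again fell among the PEC-deprived samples, and the groups overlapped. For this gene the log2 fold change was -0.37 ± 0.15 (95% interval -0.71 to -0.03, adjusted p = 0.43 in limma). Notch3 minus Notch4, computed within arrays, was 0.91, 0.14 and 0.29 in the PEC-enriched samples and 0.38, 0.51 and 0.79 in the PEC-deprived samples. These groups overlapped (difference -0.11, two-sided exact permutation test, p = 0.7, and 0.7 after adjustment over the same 2 comparisons).

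Both targets had lower means in the PEC-enriched samples. Hey1, a repressor induced by Notch in arterial endothelium, measured 6.79, 6.92 and 6.85 there and 6.98, 7.32 and 7.31 in the PEC-deprived samples. The groups did not overlap. On the log2 scale the difference was -0.35 ± 0.12 (95% interval -0.62 to -0.08, adjusted p = 0.34 in limma).

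Hes1, the broadly expressed repressor whose promoter is printed above, measured 9.12, 8.54 and 8.65 in the PEC-enriched samples and 9.18, 9.13 and 9.01 in the PEC-deprived samples. PEC-enriched replicate 1 lay between PEC-deprived replicates 2 and 3, so the groups overlapped. Between groups the log2 difference was -0.33 ± 0.15 (95% interval -0.68 to 0.02, adjusted p = 0.51 in limma), and it was -0.51 without PEC-enriched replicate 1 and -0.22 without PEC-enriched replicate 2.

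One array shaped several of these results. Of the 8 members with lower means in the PEC-enriched samples, 6 had their highest PEC-enriched value in replicate 1, the exceptions being Dll1 and Hey1, which had theirs in replicate 2. Without PEC-enriched replicate 1 the groups did not overlap for any of the 10 members, against 34.1% of all genes. Without PEC-deprived replicate 3 they did not overlap for 8 members, against 27% of all genes. With all arrays the count was 5. It was 6 without PEC-deprived replicate 1, and 5 without PEC-deprived replicate 2 or PEC-enriched replicate 2 or 3. Shares over all genes for those left-out arrays are not given here. Leaving out an array can only keep or raise this count, so the counts are not read as results about the members. No member changed direction when any single array was left out.

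**Figure D2:**
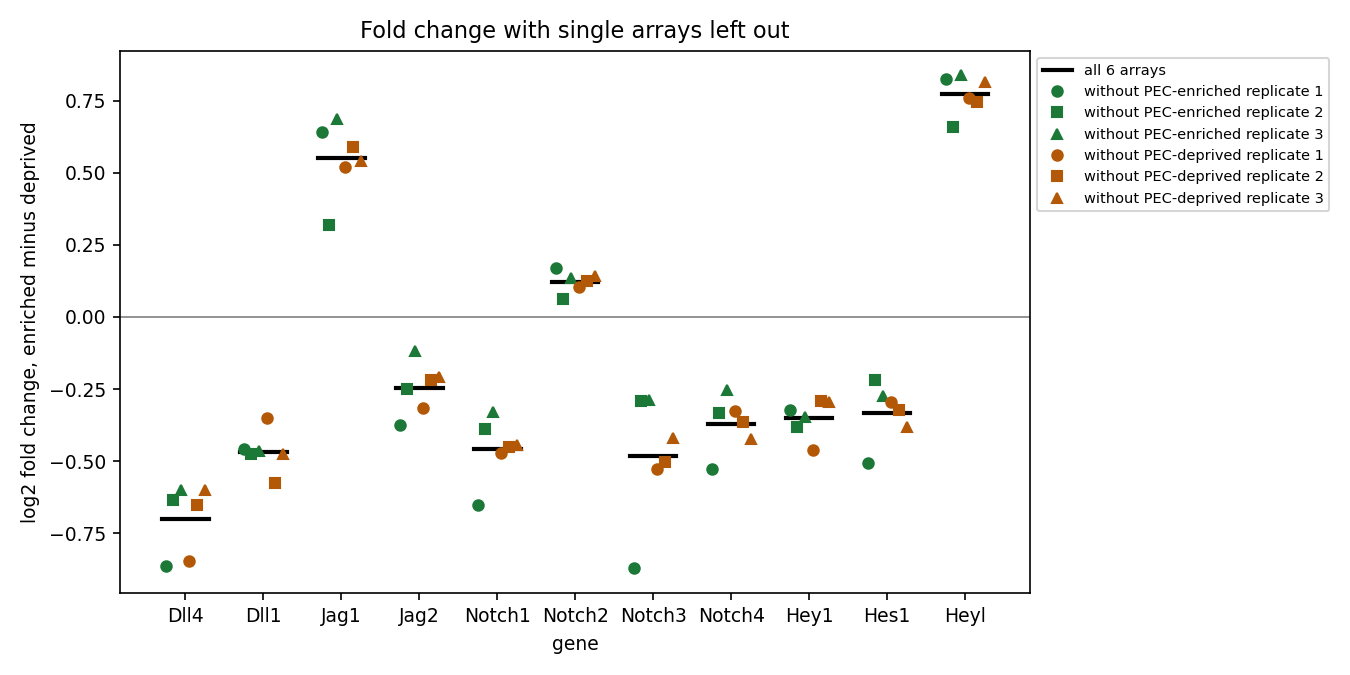
Log2 fold change, PEC-enriched minus PEC-deprived, of the 10 Notch genes and Heyl with all 6 arrays (black bar) and with each array left out in turn (symbols). All points keep the side of 0 that the bar has; Notch3 ranges from -0.87 to -0.29 and Jag1 from 0.32 to 0.69.

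The lower members were next set against the endothelial list, whose mean level was lower in the same samples. Relative to its own mean over the arrays, the list stood at 0.11, -0.38 and -0.45 in the PEC-enriched samples and at 0.18, 0.31 and 0.24 in the PEC-deprived samples, and no Notch gene is part of it. Notch1 followed the list most closely, staying within 0.07 of it on each of the 6 arrays, and the difference between groups left after the list was subtracted was 0.03. The remaining differences were 0.02 for Dll1, 0.11 for Notch4, 0.13 for Hey1, 0.15 for Hes1 and -0.22 for Dll4, and in all of them the groups overlapped. A small group difference did not mean that a gene followed the list on each array. Dll1 departed from it by up to 0.36 on a single array and Hey1 by up to 0.34. Dll4, with a group difference larger in size, departed by up to 0.31. For Notch3 the group difference was 0.00, with a departure of up to 0.43. Jag1 (1.03), Notch2 (0.61) and Jag2 (0.23) lay higher in the PEC-enriched samples relative to the list, without overlap between groups. These are differences of levels and carry no test, and the part of endothelial content in the values of the members was not tested.

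Like Notch3, some mesangial and leukocyte genes were highest in PEC-enriched replicate 1 and lowest in the other PEC-enriched samples. Pdgfrb, the PDGF receptor of mesangial cells and pericytes, measured 11.33, 9.96 and 10.10 in the PEC-enriched samples and 10.92, 10.78 and 10.86 in the PEC-deprived samples. Gata3, a transcription factor of mesangial cells, measured 10.95, 9.23 and 9.55, and 10.55, 10.58 and 10.52. Both shared with Notch3 a highest value in PEC-enriched replicate 1 and the lowest values in the other PEC-enriched samples. The mean level of the 5 mesangial and renin cell markers shared these extremes too, at 0.38, -0.51 and -0.25 in the PEC-enriched samples and between 0.06 and 0.21 in the PEC-deprived samples, but Pdgfra (log2 fold change 0.14 ± 0.10) and Akr1b7 (0.08 ± 0.15) of that list did not. The leukocyte list was also lowest in PEC-enriched replicates 2 and 3, at 0.16, -0.46 and -0.26 against 0.07 to 0.28 in the PEC-deprived samples. Csf1r, a macrophage receptor of that list, was highest in PEC-enriched replicate 1, at 8.64, 7.78 and 7.74, and measured 8.33, 8.36 and 8.51 in the PEC-deprived samples. Ptprc and Cd68 of the leukocyte list were also highest in that replicate, but Cd74, Cd3e, Itgam, Cd14, Lyz2 and Cd53 were not. The part of either cell type in the values of Notch3 was not tested.

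**Figure D3:**
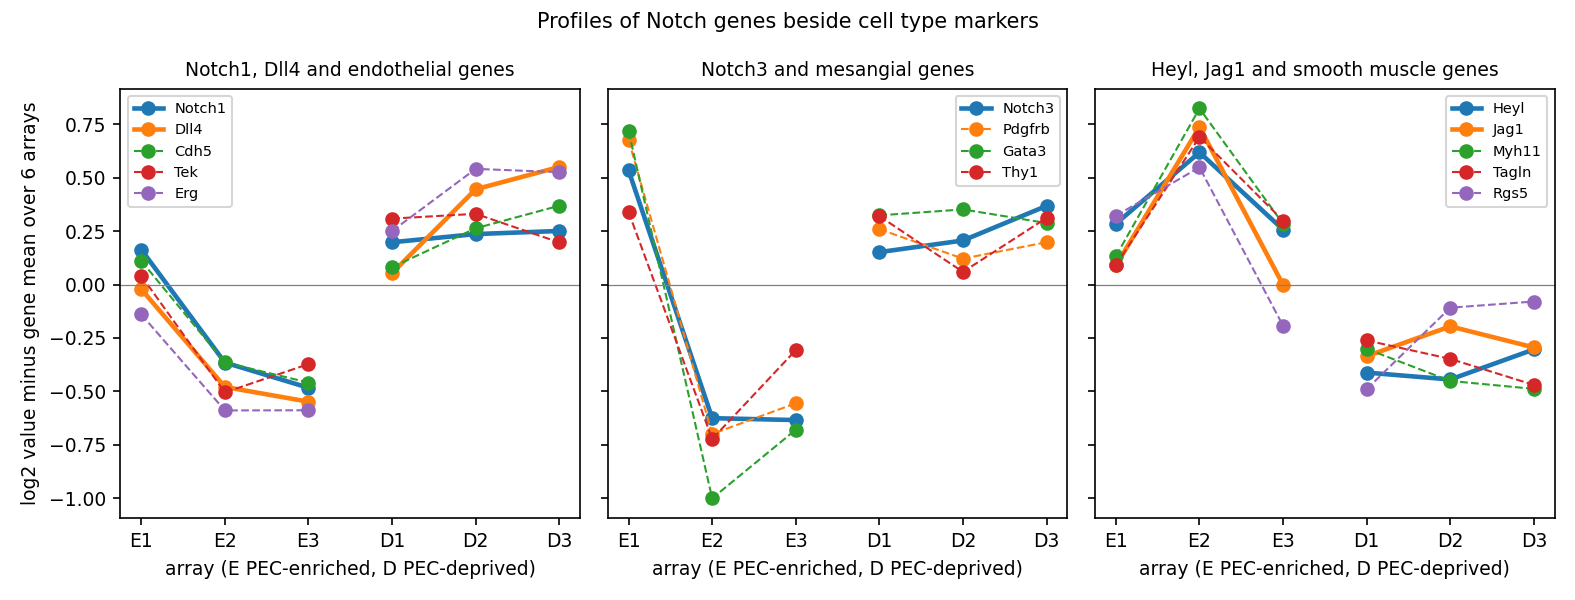
Log2 values of Notch genes (solid lines) and cell type markers (dashed lines) on each array, each centred on the gene's own mean over the 6 arrays; E1 to E3 are PEC-enriched and D1 to D3 PEC-deprived samples, and the markers were picked from the lists after their values were seen. Notch1 and Dll4 are lowest in E2 and E3, as are the endothelial genes drawn. From the centred mean of the endothelial list Notch1 departs by up to 0.07 on an array and Dll4 by up to 0.31. Notch3 runs with Pdgfrb, Gata3 and Thy1 (highest in E1, lowest in E2 and E3). Heyl and Jag1 are highest in E2, as are Myh11, Tagln and Rgs5. Other smooth muscle markers, such as Des and Mcam, are not. The mean levels of the parietal list (0.159, 0.604 and 0.278 in E1 to E3) and the proximal tubule list (0.319, 0.863 and 0.23), not drawn, are also highest in E2.

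Without regard to function, the genes whose centred profiles over the 6 arrays were closest to those of the 3 members with the largest differences were as follows. Closest to Dll4 were Inka1, Gimap6, Spry4, Arhgap45 and Rps6ka2, with a root mean square difference of 0.05 to 0.09 on the log2 scale. Closest to Jag1 were Cfap300, Efhc2, Cyp2r1, Egfr and Kcnip1, at 0.07 to 0.09. Closest to Notch3 were Rasgrp2, Sfrp2, Cd180, Itgal and Kank4, at 0.05 to 0.11. The 3 lists, drawn from 14506 genes, shared no gene.

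The rest of the pathway was taken from a list of 61 further genes, of which 52 were measured and 9 were not analysed here. Of these 52, 17 had higher and 35 lower means in the PEC-enriched samples, with a median log2 fold change of -0.08. None passed the adjusted threshold in limma. At an unadjusted p under 0.05 there were 8 (15.4%, against 13.6% of all genes), 2 higher (Heyl and Tle2) and 6 lower (Mfng, Adam17, Maml3, Dtx3l, Numb and Nrarp). The groups did not overlap for 10 of the 52 (19.2%, against 18.7% of all genes). These shares lie near those of all genes.

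Heyl, a Hey family repressor and Notch3 target in vascular smooth muscle, had the largest difference of the 62 measured pathway genes, and it ran opposite to Hey1. It measured 7.51, 7.85 and 7.48 in the PEC-enriched samples and 6.82, 6.78 and 6.92 in the PEC-deprived samples. The lowest PEC-enriched value lay 0.56 above the highest PEC-deprived value. Its log2 fold change was 0.77 ± 0.12 (95% interval 0.50 to 1.05), a 1.71-fold higher mean, with an adjusted p of 0.15 in limma and 0.0035 in the regularised Bayesian test. Like Dll4, Heyl is in the gene list that the study chose on these arrays. With each array left out in turn, its log2 fold change stayed between 0.66 and 0.84.

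Heyl did not follow Notch3 across the arrays, since Notch3 was lowest in PEC-enriched replicates 2 and 3, where Heyl was higher than in any PEC-deprived sample. Of the 10 smooth muscle and pericyte markers, Myh11 and Tagln had the largest log2 fold changes, 0.83 ± 0.17 and 0.72 ± 0.15, with no overlap between groups. Myh11, smooth muscle myosin, measured 7.60, 8.29 and 7.75 in the PEC-enriched samples and 7.16, 7.01 and 6.98 in the PEC-deprived samples. Other markers of the list did not share this: Cnn1 was at 0.02 ± 0.13, Lmod1 at -0.0039 ± 0.10, Mylk at -0.06 ± 0.10, Des at -0.34 ± 0.11 and Mcam at -0.50 ± 0.24 (log2 fold change, SE). The mean level of the 10 smooth muscle and pericyte markers overlapped between groups, at -0.02 to 0.15 and -0.12 to 0.01. Their part in the values of Heyl was not tested.

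Among the genes that modify receptors, Mfng, a Fringe glycosyltransferase that tunes which ligands a Notch receptor answers to, had the largest difference. It measured 7.81, 7.51 and 7.70 in the PEC-enriched samples and 8.02, 8.20 and 8.37 in the PEC-deprived samples. The groups did not overlap, and the log2 fold change was -0.52 ± 0.12 (adjusted p = 0.21 in limma). Lfng, another Fringe, was -0.24 ± 0.11, and -0.16 without PEC-deprived replicate 3. Relative to the endothelial list, the difference left for Mfng was -0.04, with overlap.

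Of the proteases, Adam17 had a log2 fold change of -0.29 ± 0.10 and Psen2, a gamma-secretase subunit, one of -0.22 ± 0.21. In the nuclear complex, the coactivator gene Maml3 (-0.23 ± 0.10) and the acetyltransferase gene Kat2a (-0.14 ± 0.11) were furthest from 0, and Rbpj itself was at -0.08 ± 0.13. Among the corepressors Tle2 was at 0.39 ± 0.12 and Tle1 at -0.26 ± 0.17, in opposite directions. Leaving out PEC-enriched replicate 1 moved Psen2 to -0.49 and Tle1 to -0.43, leaving out replicate 2 moved Psen2 to -0.07, and leaving out replicate 3 moved Psen2 to -0.11, Tle1 to -0.08 and Kat2a to -0.06. These genes span the core of the signal from cleavage to transcription, and all had an adjusted p over 0.01 in limma.

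Of the regulators, the ubiquitin ligase gene Dtx3l (-0.41 ± 0.15) and Numb (-0.35 ± 0.15), an inhibitor of Notch, differed most, and all 7 measured regulators had lower means. Nrarp, a target that feeds back on the Notch complex, was lower without overlap, at -0.26 ± 0.10. The other ligands Dlk1 (-0.13 ± 0.10) and Dlk2 (-0.08 ± 0.14), and the ligand ubiquitin ligase genes Neurl1b (-0.25 ± 0.14) and Mib1 (-0.04 ± 0.09), overlapped between groups. Without PEC-enriched replicate 2, Neurl1b was at -0.17 and Dlk1 at -0.05. Without PEC-enriched replicate 1 Dlk1 was at -0.20, and without PEC-deprived replicate 1 Neurl1b was at -0.15.

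**Figure D4:**
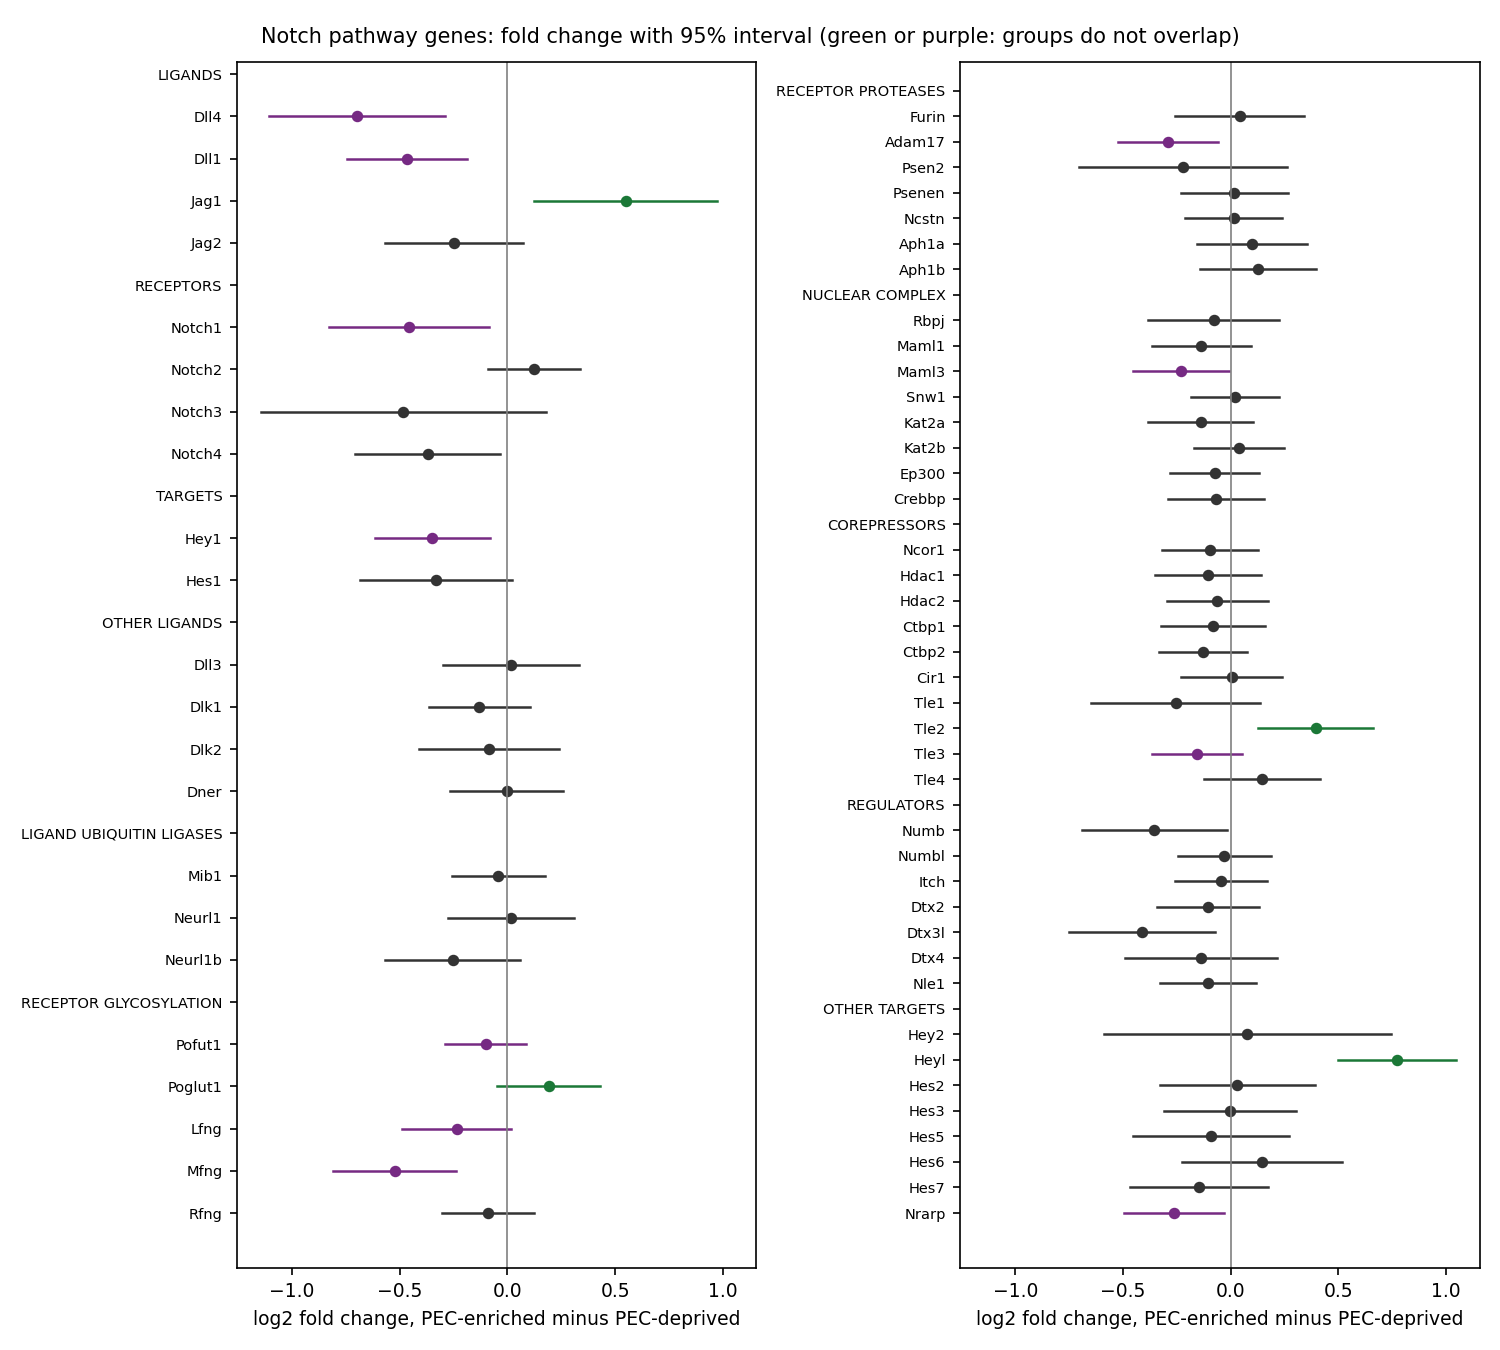
Log2 fold change, PEC-enriched minus PEC-deprived (points), with the 95% interval from limma (lines) for the 10 Notch genes and the 52 further pathway genes by role; colour marks genes whose groups do not overlap, green where PEC-enriched samples are higher and purple where they are lower. Heyl (0.77) and Jag1 (0.55) stand furthest to the right and Dll4 (-0.70) and Mfng (-0.52) furthest to the left; the intervals are not adjusted for the number of genes.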

How the data were processed

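Per the methods, the authors hybridized RNA to Affymetrix Rat Gene 1.0 ST arrays and made the deposited log2 values with RMA (background adjustment and quantile normalization), 1 per probeset and array. Which program ran RMA is not given in the sources used here. Detection calls were not used, so signal over background is unknown. Of 29215 probesets, 15310 had 1 symbol in the platform annotation of GEO, and a gene was its probeset with the highest mean. limma 3.58.1 in R 4.3.3 was fitted to all probesets without pairing, with Benjamini-Hochberg adjustment. The regularised Bayesian test used a prior weight of 10 over a window of 101 probesets. Both were tested on data simulated with each probeset's own SD, where the share of false calls of the regularised Bayesian test was well above its threshold and that of limma close to it. That setting can count against tests that draw variances together, as both do in different ways, so it does not rank the tests. Members and lists were chosen with earlier results of these data known. Named genes were all members, Heyl, Rbpj and, per role list, the 2 with the largest difference, plus markers. Rbpj, Hey2, Hes2, Hes5, Hes6, Hes7, Pdgfrb, Pdgfra, Akr1b7 and Csf1r were named after their values were seen. So were the other named leukocyte and smooth muscle markers and the genes counted at an unadjusted p under 0.05. No 2 arrays were identical. The number of arrays limits the precision. Figures were drawn with matplotlib 3.10.9.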

Additional observations from a re-analysis of the deposited data

How the results depend on the processing

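With 3 arrays a group and 29215 probesets, limma called 0 probesets, and so did every alternative limma fit with all arrays: an intensity trend, array weights, probesets above the median level or with 1 symbol, median centring, cyclic loess and an adjusted p under 0.05 left the members at 0 calls. The regularised Bayesian test called 334 probesets, of which 1 was a member (Dll4, adjusted p = 0.0069) and 1 another pathway gene (Heyl, 0.0035). The study, with its own Bayesian t-test and an adjusted p under 0.01, also reported 334 probesets, where limma called 0. Whether the 334 are the same probesets was not tested. With the replicate number as a block, no probeset passed, members had adjusted p-values of 0.38 to 0.71, and 7 were under an unadjusted 0.05. Jag1 minus Dll4 then gave p = 0.25 in the exact permutation test within blocks, the smallest that 3 blocks can give. Deviations of same-numbered samples correlated at -0.03, 0.05 and 0.1, and those of differently numbered samples at -0.135 to 0.0827. With 3 arrays a group, such correlations cannot tell whether the numbers pair the arrays. Leaving out single arrays gave 0 to 1 called probesets (1 without PEC-deprived replicate 1), 5 to 10 members without overlap, 12 to 20 other pathway genes without overlap (20 without PEC-enriched replicate 1), and 4 to 9 with an unadjusted p under 0.05 (4 without PEC-enriched replicate 2 or PEC-deprived replicate 3, and 5 without PEC-deprived replicate 1 or 2 or PEC-enriched replicate 3). The share of all genes without overlap rose too, from 18.7% to 34.1% without PEC-enriched replicate 1 and to 27% without PEC-deprived replicate 3. Shares over all genes for the other left-out arrays, and at an unadjusted p under 0.05 in these and the block fits, are not given here. These counts are therefore not read as results about the pathway. Notch3 minus Notch4, -0.11 with all arrays, ran from -0.343 without PEC-enriched replicate 1 to 0.0396 without PEC-enriched replicate 2 (0.0029 without PEC-deprived replicate 3), Dlk2 from -0.212 without PEC-enriched replicate 3 to 0.0514 without PEC-enriched replicate 2, and Mib1 from -0.104 without PEC-enriched replicate 2 to 0.0117 without PEC-enriched replicate 1. The cause was not tested.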
